A study of Arabidopsis thaliana with 8 samples.

Results

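The WRKY genes encode a plant-specific family of transcription factors, and 43 of the 72 WRKY loci in the RefSeq annotation of *Arabidopsis thaliana* were followed here. They were taken by locus from a table of 37573 genes, with members of groups I, IIa to IIe and III. Counts and sums by group cover these 43 loci only, and the other WRKY loci were not assigned to groups. The hypocotyl, the organ between root and shoot in which wood and bast are formed, was sampled from 4-week-old plants. Groups compared were DEX, plants watered with 15 µM dexamethasone and harvested 5 h later, and mock, plants watered with the same volume of DMSO, the solvent, with 4 libraries each. Plants of both groups carried the transgene SMXL7pro:SMXL7d53-GR in an otherwise wild type (WT) background and grew for 3 weeks in short days (10 h light) and 1 week in long days (16 h light). In this transgene the promoter of SMXL7, a repressor of strigolactone signalling, drives a form of the protein with the d53 mutation, which is known to block its strigolactone-triggered degradation. GR is the hormone-binding part of the glucocorticoid receptor, which keeps a fused protein inactive until DEX is given. Plants without the transgene are not among the libraries, so effects of the fusion protein and of DEX itself cannot be told apart. How many plants entered a library is not given in the sources used here, and the p-values measure the spread between these libraries, which may be technical in part.

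WRKY proteins bind DNA through a domain with a short signature, from which the family takes its name, and a zinc finger behind it. Their usual binding motif is the W-box, TTGACC or TTGACT. Group I proteins carry a pair of these domains, group II and III proteins a single one, and group III proteins have a zinc finger of a different spacing. Many members are known for rapid induction by pathogens, wounding, touch or salicylic acid, and many act on each other's promoters. Several others take part in development, phosphate supply or senescence. Translating the RefSeq coding sequences showed 2 signatures in each of the 7 group I proteins and 1 in each of the other 36, and zinc fingers of the C-X7-C type in the 7 group III members only.

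The coding bases of the signature are shown for members on which the results turn, with the bases of the signature itself in capitals and the flanking coding bases in lower case, read on the strand of the gene. For the group I gene *WRKY33* the copy in the second domain is shown. They lie in coding exons of TAIR10.1 at chr1:30384771-30384827, plus strand (*WRKY40*), chr4:15384298-15384354, plus strand (*WRKY18*), chr2:16109964-16110020, plus strand (*WRKY33*), chr2:19044295-19044351, minus strand (*WRKY46*) and chr4:523485-523541, minus strand (*WRKY22*). The group IIc stretches lie at chr5:20091627-20091683, plus strand (*WRKY48*), chr5:25908846-25908902, plus strand (*WRKY51*), chr5:9147561-9147617, minus strand (*WRKY50*) and chr1:10455077-10455133, plus strand (*WRKY71*).
WRKY40: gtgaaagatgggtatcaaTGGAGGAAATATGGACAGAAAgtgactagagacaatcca
WRKY18: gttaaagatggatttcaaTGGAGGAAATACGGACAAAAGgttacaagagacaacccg
WRKY33: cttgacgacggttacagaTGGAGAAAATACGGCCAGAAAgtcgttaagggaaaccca
WRKY46: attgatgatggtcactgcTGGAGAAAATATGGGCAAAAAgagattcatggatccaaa
WRKY22: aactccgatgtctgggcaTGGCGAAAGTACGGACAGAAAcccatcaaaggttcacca
WRKY48: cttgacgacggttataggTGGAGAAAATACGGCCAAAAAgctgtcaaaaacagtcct
WRKY71: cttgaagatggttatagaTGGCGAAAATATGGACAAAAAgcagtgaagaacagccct
WRKY51: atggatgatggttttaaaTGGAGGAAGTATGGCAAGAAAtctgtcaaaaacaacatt
WRKY50: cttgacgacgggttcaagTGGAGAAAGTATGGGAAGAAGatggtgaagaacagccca
*WRKY51* and *WRKY50* were the only members among the 43 with the variant signature, which has a glutamine-to-lysine change. The members shown from groups I, IIa, IIe and III, and *WRKY48* and *WRKY71* of group IIc, all carry the standard one and differ in the capitals only at the level of codons.

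DEX treatment was accompanied by higher transcript levels of a set of WRKY genes, most of them known from early stress and defence responses. A gene was called induced or suppressed when its adjusted p in edgeR's quasi-likelihood test (Benjamini-Hochberg over all 21289 genes tested) was under 0.01, its fold change in that direction over 1.5 and its mean normalised count over 50. Of the 43 members, 42 had enough reads to be tested and 38 of these had a mean over 50. In DEX libraries 9 members were induced, which were *WRKY40* (AT1G80840), *WRKY46* (AT2G46400), *WRKY48* (AT5G49520), *WRKY33* (AT2G38470), *WRKY22* (AT4G01250), *WRKY18* (AT4G31800), *WRKY30* (AT5G24110), *WRKY51* (AT5G64810) and *WRKY26* (AT5G07100), and 1, *WRKY71* (AT1G29860), was suppressed. This was 21.4% of the tested members for induction, while 4.64% of all tested genes were induced and 1.81% were suppressed. The 43 loci were chosen with earlier results of these data known, which can raise their share. Of the 23 tested WRKY loci outside the 43, 4.35% were induced. Without the fold change threshold and the minimum mean, 16 members were higher at an adjusted p under 0.01, 1 was lower and 25 were neither. By the same rule 10.9% of all tested genes were higher and 8.69% were lower. For 19 members the lowest DEX library exceeded the highest mock library in normalised counts, and for 1 the highest DEX library was below the lowest mock library, beside 16.2% and 15.1% of all tested genes. The median log2 fold change was 0.21 over the 42 members and -0.01 over all tested genes.

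**Figure D1:**
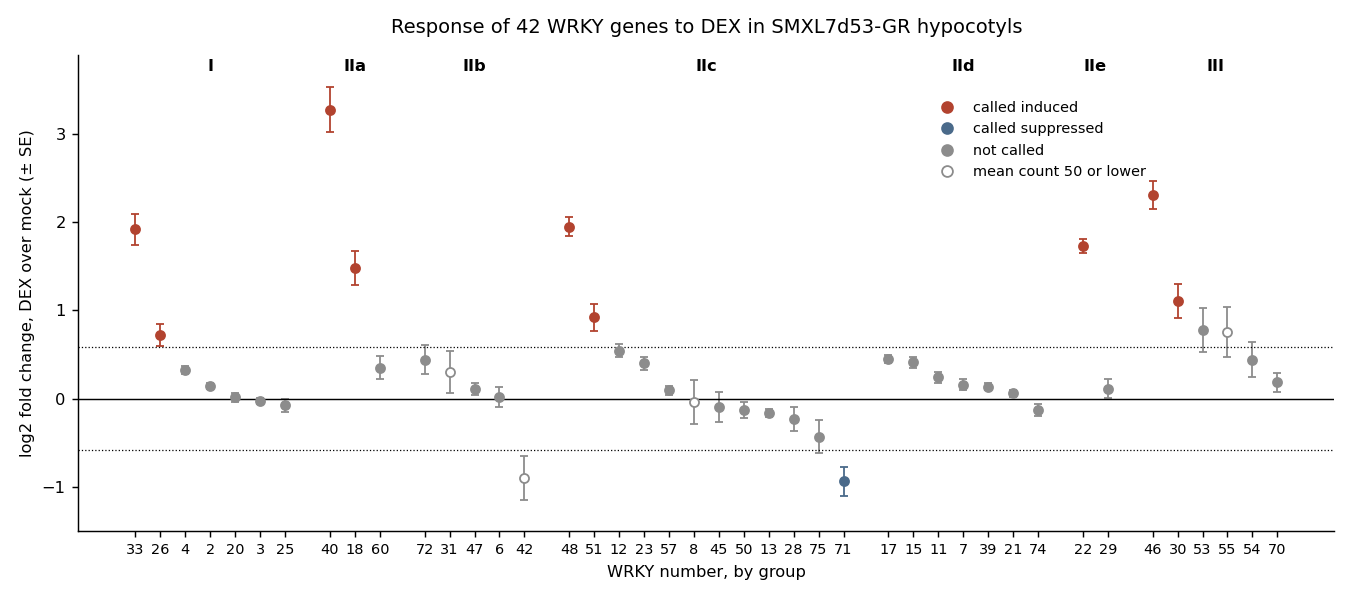
Log2 fold change, DEX over mock, of 42 WRKY genes, ordered within their groups (points, edgeR estimate; bars, standard error; dotted lines, a 1.5-fold change in either direction; open points, mean count of 50 or lower). The 9 induced genes come from groups I, IIa, IIc, IIe and III, with *WRKY40* highest at 3.28, and no gene of groups IIb and IId is called.

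Between 47976811 and 63996960 reads were counted on genes in DEX libraries and between 49220724 and 85953231 in mock libraries, and the coefficient of variation between replicates was 0.0662. Counts given below are normalised for library size by the TMM method of edgeR and stand for replicates 1 to 4 in that order. In a whole organ, fewer cells of a type cannot be told apart from less RNA per cell. Markers of other tissues moved as well. Of 12 genes known from shoot, leaf and stomatal tissue 9 were tested, and 5 of them were suppressed (*TMM*, *SPCH*, *FAMA*, *EPF2* and *AFO*). The summed count of the list, mostly of *STM*, ranged from 15697 to 16680.3 in DEX and from 14534 to 15448 in mock libraries. *STM* moved the other way, with 11198 counts in DEX and 7780 in mock libraries on average, and no overlap. At 0.53 on the log2 scale this rise stayed under the fold change threshold. Among the 9 tested genes, 1 (*STM*) was higher and 6 were lower at an adjusted p under 0.01. The 3 not tested averaged 5.90 (*MUTE*), 4.65 (*EPF1*) and 12.5 (*WUS*) counts in DEX and 15.6, 11.8 and 8.73 in mock libraries, so none was at 0. The hypocotyl's own markers were present, with *PXY*, a receptor gene of cambium stem cells, at 12371 counts in DEX and 11145 in mock libraries on average. Of 10 genes of vascular and periderm tissue 0 were called, with sums from 31874 to 34376 in DEX and from 30877 to 32701 in mock libraries, at an adjusted p under 0.01 for 1 higher and 3 lower genes. A list of 14 genes known to react early to touch, wounding and stress, among them *TCH4*, *ZAT10* and *JAZ1*, held 12 induced genes (85.7%). Of all tested genes 4.64% were induced, and the lists were chosen with earlier results of these data known, which can raise such shares. The sum of the touch, wounding and stress list ranged from 154646 to 175583 in DEX and from 50172 to 64230 in mock libraries. The part of these changes in the WRKY result was not tested.

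Group IIa held the strongest change. *WRKY40*, *WRKY18* and *WRKY60* are known as a trio that form complexes with each other and modulate defence and abscisic acid responses. *WRKY40* had 9168, 10820.1, 14156 and 11409 normalised counts in DEX libraries, against 906, 828, 1377 and 1599 in mock libraries. All DEX libraries lay far above all mock libraries, and the fold change was 9.69 (log2 3.28, SE 0.26, adjusted p = 9.1e-05). Only 0.0939% of all tested genes had a log2 fold change at or above that of *WRKY40*. *WRKY18* had 4277, 4479.6, 7544 and 5035 normalised counts in DEX libraries, against 1738, 1764, 2157 and 1977 in mock libraries. The groups did not overlap, with replicate 3 standing highest among the DEX libraries (log2 fold change 1.48, SE 0.20, adjusted p = 0.0011). *WRKY60* had 314, 436, 418 and 384 normalised counts in DEX libraries, against 295, 248, 373 and 294 in mock libraries. Here the groups overlapped, since DEX replicate 1 lay below mock replicate 3, and the gene was not called (log2 fold change 0.35, SE 0.13, adjusted p = 0.059). A stretch of 175 exon bases of *WRKY40* matches AT3G32090 with 96.0% identity, and reads that fit both places were not counted.

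Group III is known for genes tied to salicylic acid and to leaf senescence. *WRKY46* is an early gene of this group with roles in basal defence and in drought responses. *WRKY46* had 6849, 7156, 8789.7 and 7628 normalised counts in DEX libraries, against 1228, 1295, 1704 and 1928 in mock libraries. The lowest DEX library thus held several times the counts of the highest mock library (log2 fold change 2.31, SE 0.16, adjusted p = 2e-05). *WRKY30* had 105, 95.3, 135 and 82.1 normalised counts in DEX libraries, against 39.2, 64.9, 42.9 and 50.6 in mock libraries. Known from responses to oxidative stress, this gene had few counts but was higher in every DEX library than in any mock library (log2 fold change 1.11, SE 0.19, adjusted p = 0.00082). *WRKY53*, a senescence regulator that is also induced early in defence, was not called although its groups did not overlap. *WRKY53* had 475, 444, 926 and 464 normalised counts in DEX libraries, against 318, 315, 377 and 334 in mock libraries. DEX replicate 3 stood apart from the 3 other DEX libraries (log2 fold change 0.78, SE 0.25, adjusted p = 0.048). Without that library the log2 fold change of *WRKY53* was 0.45, under the fold change threshold. Its SE was then 0.08 and its adjusted p from edgeR 0.0018, so the difference did not rest on that library alone. In the RefSeq annotation, exons of other genes cover 20.5% of the exon bases of *WRKY53*. Reads there were left out of the counts if the authors' annotation, which is not given, has the same overlap.

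*WRKY70* and *WRKY54*, a close pair that restrains senescence and acts in salicylic acid signalling, were among the members that did not pass. *WRKY70* had 3898, 3366, 4131 and 4269.5 normalised counts in DEX libraries, against 3634, 2795, 3829 and 3512 in mock libraries. *WRKY54* had 1169, 819.6, 1209.5 and 1285 normalised counts in DEX libraries, against 1049, 574, 821 and 821 in mock libraries. Both overlapped between groups, with log2 fold changes of 0.18 for *WRKY70* (SE 0.10, adjusted p = 0.22) and 0.44 for *WRKY54* (SE 0.20, adjusted p = 0.14). *WRKY55* averaged 18.1 ± 4.72 counts in DEX and 10.5 ± 2.43 in mock libraries (SD, n = 4 each), under the minimum of 50, with an adjusted p of 0.058. *WRKY41* was not tested. Its raw counts were 6, 8, 12 and 6 in DEX libraries, against 6, 8, 2 and 1 in mock libraries. A change of *WRKY41* was therefore not detectable at this depth. In the RefSeq annotation 41.7% of its exon bases are shared with other genes.

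In group I, 2 of 7 members were induced. *WRKY33* encodes a regulator of the phytoalexin camalexin and of resistance to fungi that kill their host, and the protein is a known target of the kinases MPK3 and MPK6. *WRKY33* had 4509, 5246, 6848 and 5441 normalised counts in DEX libraries, against 1369.5, 1097, 1709.9 and 1633 in mock libraries. All DEX libraries lay above all mock libraries (log2 fold change 1.92, SE 0.18, adjusted p = 0.00013). *WRKY26* and *WRKY25* act with *WRKY33* in heat tolerance. *WRKY26* had 334, 256, 331 and 273 normalised counts in DEX libraries, against 214, 149, 177 and 178 in mock libraries. The groups of *WRKY26* did not overlap (log2 fold change 0.72, SE 0.12, adjusted p = 0.00072). *WRKY25* had 781, 688, 793 and 756 normalised counts in DEX libraries, against 895, 707, 785 and 777 in mock libraries. For *WRKY25* they overlapped, and its log2 fold change, -0.08 (SE 0.07), had an adjusted p of 0.47. *WRKY4* and *WRKY2* were higher at an adjusted p under 0.01 but under the fold change threshold, with log2 fold changes of 0.32 (SE 0.04) and 0.14 (SE 0.03). *WRKY3*, which is known to act with *WRKY4* against fungi, and *WRKY20* had log2 fold changes of -0.03 (SE 0.04) and 0.01 (SE 0.05).

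Group IIe was followed through *WRKY22* and *WRKY29*, which are known as targets of the kinase cascade set off by bacterial flagellin. *WRKY22* had 2047, 2172, 2321 and 2189.9 normalised counts in DEX libraries, against 559.6, 616, 754 and 699 in mock libraries. The libraries of each group were close together, and this gene had the smallest adjusted p of all members (log2 fold change 1.73, SE 0.08, adjusted p = 7.7e-08). *WRKY29* had 312, 252, 337 and 285 normalised counts in DEX libraries, against 324, 269, 248 and 251 in mock libraries. The highest mock library of *WRKY29* lay above 3 of the 4 DEX libraries, and the gene was not called (log2 fold change 0.11, SE 0.11, adjusted p = 0.48). In the RefSeq annotation, exons of other genes cover 18.02% of the exon bases of *WRKY29*.

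**Figure D2:**
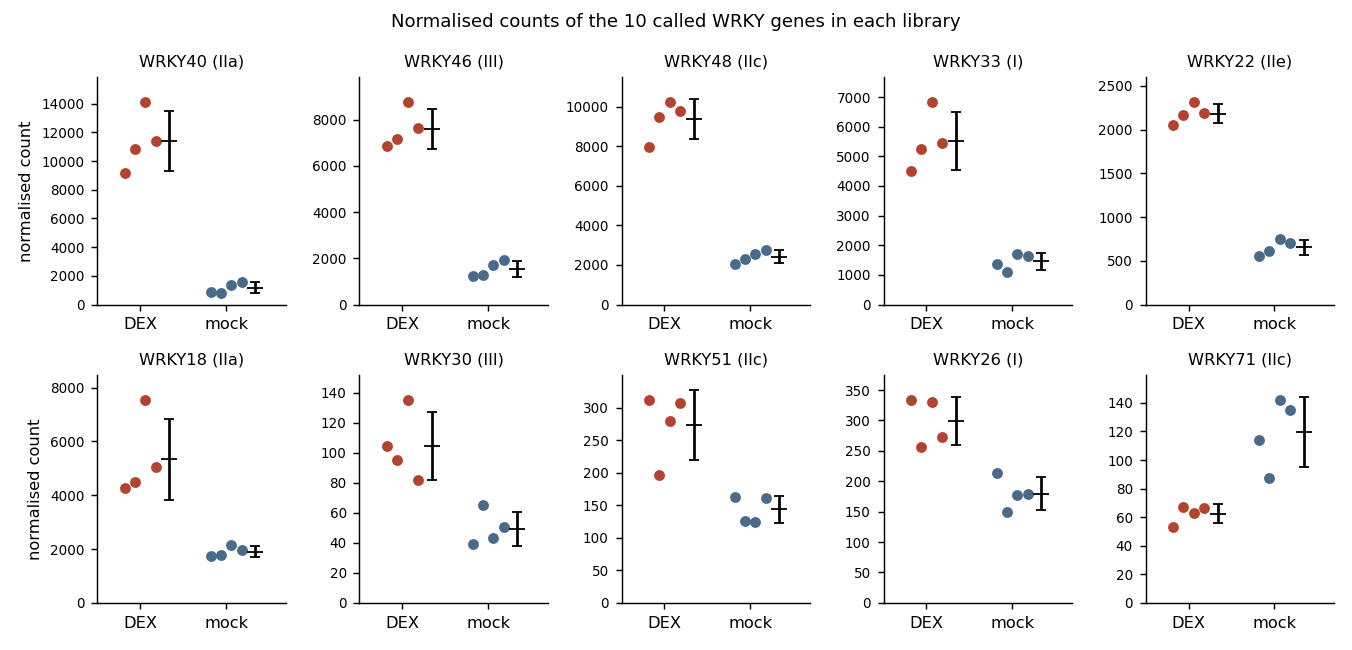
Normalised counts (linear axes from 0) of the 10 called WRKY genes in each of the 8 libraries, DEX at the left and mock at the right of each panel, with replicates 1 to 4 in order, and the mean with its SD beside the points (n = 4). In no panel do the groups overlap, and *WRKY71* is the gene with DEX libraries below mock libraries.

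Group IIc, with 12 members the largest group followed here, held 2 induced genes and the suppressed one. *WRKY48* encodes an activator of transcription that is known to lower basal resistance to bacteria. *WRKY48* had 7946, 9485, 10254 and 9795 normalised counts in DEX libraries, against 2040.4, 2322, 2575 and 2762 in mock libraries. The groups were far apart (log2 fold change 1.95, SE 0.11, adjusted p = 1.1e-06). *WRKY51* and *WRKY50*, which carry the variant signature printed above, are known to mediate the repression of jasmonate responses by salicylic acid. *WRKY51* had 312, 196, 280.4 and 308 normalised counts in DEX libraries, against 163, 126, 125 and 162 in mock libraries. The groups of *WRKY51* did not overlap (log2 fold change 0.92, SE 0.15, adjusted p = 0.00071). *WRKY50* had 278, 247, 232 and 242 normalised counts in DEX libraries, against 277, 298, 254 and 268 in mock libraries. Those of *WRKY50* did, and the log2 value was -0.13 (SE 0.09, adjusted p = 0.28).

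*WRKY71*, also named EXB1, is known to promote shoot branching and flowering. *WRKY71* had 52.9, 67.4, 63.1 and 66.7 normalised counts in DEX libraries, against 114, 87.4, 142 and 135 in mock libraries. All DEX libraries lay below all mock libraries at this low level of counts (log2 fold change -0.94, SE 0.16, adjusted p = 0.00083). The related genes *WRKY28* and *WRKY8*, the first known as an activator of salicylic acid synthesis, were not called, with log2 fold changes of -0.24 (SE 0.13, adjusted p = 0.21) and -0.04 (SE 0.25, adjusted p = 0.92). *WRKY8* averaged 32.2 ± 6.34 counts in DEX and 34.3 ± 12.1 in mock libraries (SD, n = 4 each).

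*WRKY12* and *WRKY13* are known from stems, where *WRKY12* represses secondary wall formation in the pith and *WRKY13* favours lignin formation, and both act on flowering time. *WRKY12* had 1255, 1104, 1118 and 1144 normalised counts in DEX libraries, against 776, 718, 913 and 753 in mock libraries. *WRKY13* had 1379, 1479, 1438 and 1364 normalised counts in DEX libraries, against 1473, 1579, 1638 and 1661 in mock libraries. *WRKY12* was higher without overlap but under the fold change threshold (log2 fold change 0.54, SE 0.07, adjusted p = 0.00011), and *WRKY13* had a value of -0.16 (SE 0.05, adjusted p = 0.023). *WRKY23*, which is known to respond to auxin and to act in root development, was higher by 0.40 on the log2 scale (SE 0.07, adjusted p = 0.0017), also under the threshold. The phosphate-related genes *WRKY75* and *WRKY45*, and *WRKY57*, a gene of drought responses, were not called, with log2 fold changes of -0.43 (SE 0.19), -0.10 (SE 0.17) and 0.09 (SE 0.05).

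Group IId proteins bind calmodulin, and some of them, among them *WRKY7*, *WRKY11* and *WRKY17*, are known to restrain basal defence. None of the 7 was called. By counts per exon length, *WRKY11*, *WRKY21*, *WRKY39*, *WRKY17* and *WRKY15* had ranks from 5 to 11 among the 43 members in DEX libraries and from 1 to 7 in mock libraries, while *WRKY7* had rank 18 in DEX and 17 in mock libraries, and *WRKY74* rank 28 and 25. *WRKY17* had 2998, 2909, 3151 and 2994 normalised counts in DEX libraries, against 2176, 2060.3, 2354 and 2221 in mock libraries. *WRKY17* was nonetheless clearly separated between groups, at a log2 fold change under the threshold (0.45, SE 0.05, adjusted p = 1.1e-05). *WRKY15* and *WRKY11* were also higher at an adjusted p under 0.01, with log2 fold changes of 0.41 (SE 0.06) and 0.24 (SE 0.06). The other 4, *WRKY7*, *WRKY39*, *WRKY21* and *WRKY74*, had log2 fold changes of 0.16 (SE 0.06), 0.13 (SE 0.04), 0.06 (SE 0.04) and -0.13 (SE 0.07).

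In group IIb 0 of 5 members were called and the groups overlapped for each of them. *WRKY6* and *WRKY42* are known repressors of the phosphate exporter gene *PHO1*. *WRKY6* had 311, 341, 452 and 427 normalised counts in DEX libraries, against 396, 354, 388 and 369 in mock libraries. The DEX libraries of *WRKY6* lay on both sides of the mock libraries (log2 fold change 0.02, SE 0.11, adjusted p = 0.92). *WRKY42* had 35.3, 15.4, 19.1 and 24.4 normalised counts in DEX libraries, against 47.0, 53.1, 33.8 and 41.0 in mock libraries. *WRKY42* had the lowest log2 fold change of the group, -0.90 (SE 0.25, adjusted p = 0.016), at a mean count under 50 and with DEX replicate 1 inside the range of the mock libraries. *WRKY72*, known from basal resistance, had a log2 value of 0.44 (SE 0.16, adjusted p = 0.055). *WRKY47* and *WRKY31* had values of 0.11 (SE 0.07) and 0.30 (SE 0.24).

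**Figure D3:**
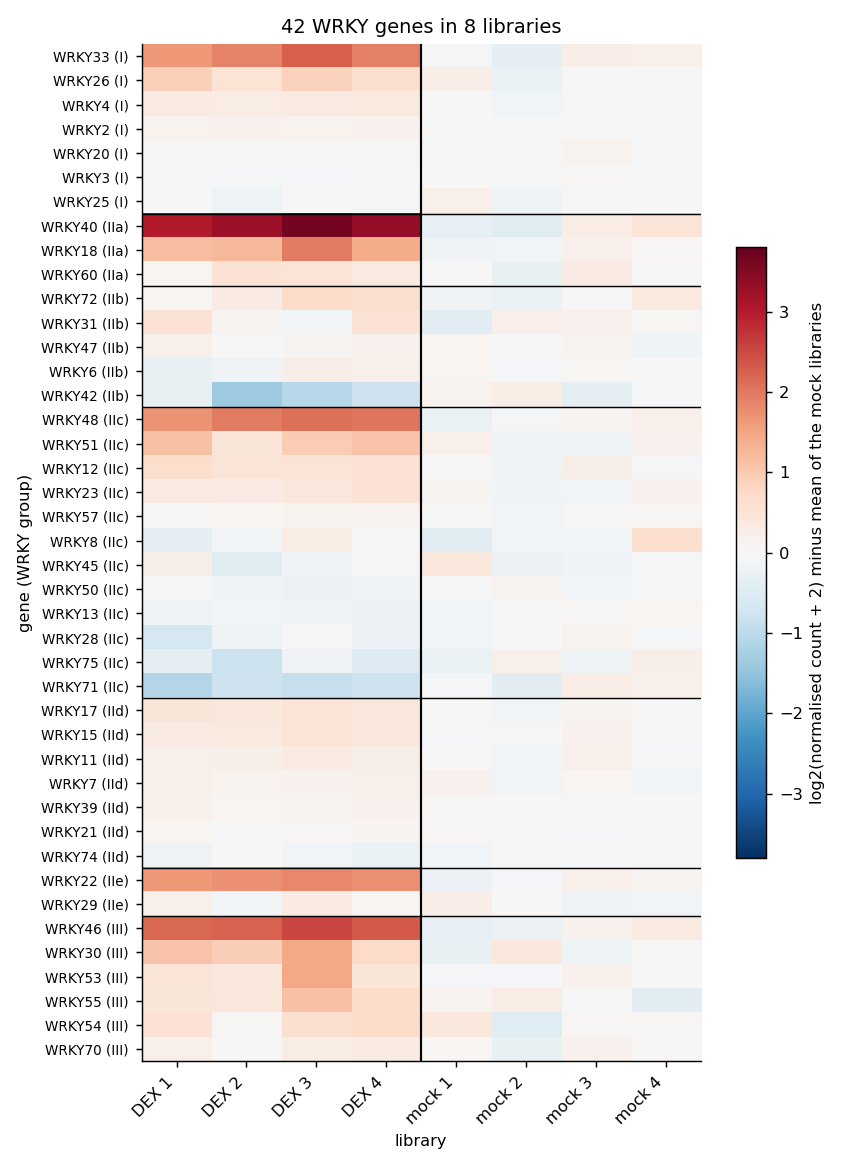
Each of the 42 tested WRKY genes (rows, by group) in each of the 8 libraries (columns, DEX left of mock), coloured by log2(normalised count + 2) minus the mean of the mock libraries. *WRKY40* is the darkest row in the DEX columns, *WRKY53* is darkest in DEX 3, and some rows that are red in all DEX columns, such as *WRKY12* and *WRKY17*, belong to genes that were not called.

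DEX replicate 3 was the highest DEX library for 7 of the 9 induced members, and for 576 (58.4%) of all 987 induced genes. DEX replicate 1 was the highest for the other 2, *WRKY51* and *WRKY26*. Among mock libraries replicate 1 was the lowest for 5 of the 9 members and for 364 (36.9%) of all induced genes, and replicate 2 for 3 of the members and 416 (42.1%) of all induced genes. Without DEX replicate 3 all 9 remained induced, with log2 fold changes such as 1.80 for *WRKY33* and 1.27 for *WRKY18*.

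Scaled for exon length, as counts per 1000000 counts and per 1000 exon bases, the order of the members differed between the groups. *WRKY40* had the highest level of all members in DEX libraries, 142, and rank 13 in mock libraries, 14.7. *WRKY46* and *WRKY48* followed with 92.7 and 80.5 in DEX libraries, where mock libraries had levels of 18.8 and 20.8. The highest members in mock libraries were *WRKY21*, *WRKY70* and *WRKY11*, at levels of 39.8, 38.6 and 37.3, and in DEX libraries these had levels of 41.5, 44.0 and 44.0. Summed over all 43 members, this level ranged from 808 to 978 in DEX and from 441 to 504 in mock libraries. The 9 induced members made up 50.2% of the sum in DEX and 19.8% in mock libraries, a share that their choice by this contrast fixes in direction. By group, the mean summed level was 189 in DEX and 33.4 in mock libraries for group IIa, 158 and 71.3 for group III, and 203 and 174 for group IId. It was 116 in DEX and 78.7 in mock libraries for group I, 170 and 101 for group IIc, and 30.7 and 11.4 for group IIe. In these 6 sums no DEX library overlapped with mock libraries, but all except that of group IId include induced members. In DEX libraries *WRKY40* alone made up 142 of the 189 of group IIa. *WRKY46* made up 92.7 of the 158 of group III, and *WRKY22* 27.2 of the 30.7 of group IIe. The sums thus do not show that whole groups rose, and sums of other gene sets were not taken. The sums of group IIb did overlap, with 8.58 to 10.01 in DEX and 8.29 to 9.16 in mock libraries.

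**Figure D4:**
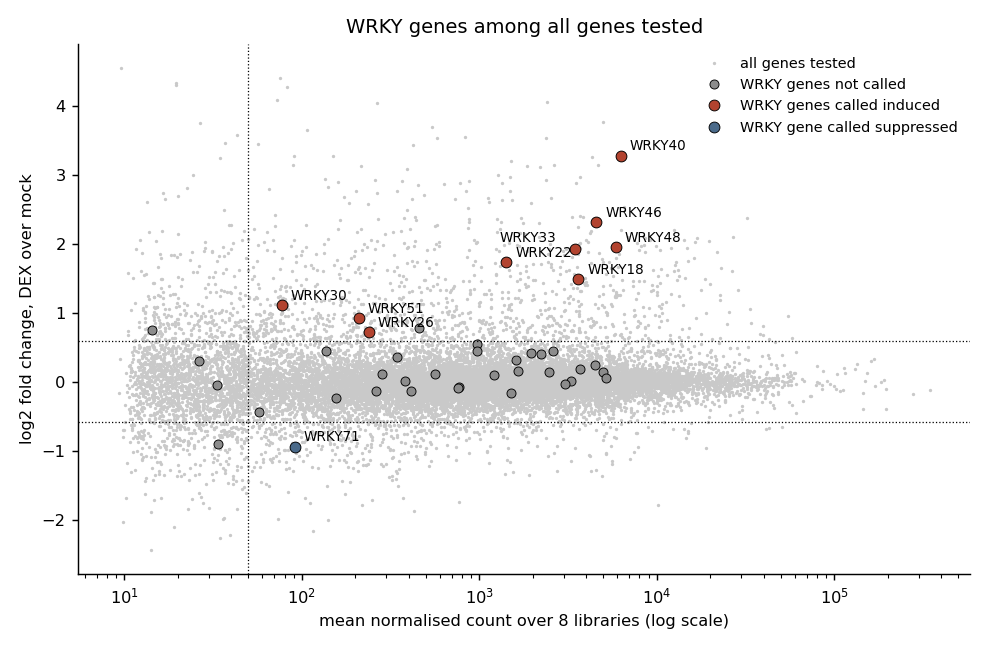
Log2 fold change, DEX over mock, against the mean normalised count over 8 libraries (log axis) for all 21289 genes tested (small grey points) and the 42 WRKY genes (large points; red, induced; blue, suppressed). The dotted lines mark a 1.5-fold change and a mean count of 50. The induced WRKY genes range in mean count from 76.9 for *WRKY30* to 6283 for *WRKY40*.

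In 8 of 12 pairs of related members the ratio of the genes differed between groups. Pairs of unrelated genes were not compared, so this count has no background share. Where a pair held an induced member (*WRKY22*, *WRKY18*, *WRKY51* or *WRKY26*), the difference largely restates its call. Proteins of the 43 members were aligned pairwise, and those of the other WRKY loci were not. Within this set, 12 pairs of tested members were each other's closest relative by identity over the longer protein. For each pair the log2 ratio of its normalised counts (0.5 added), with the gene of the higher log2 fold change on top, was taken within each library and compared between groups by an exact two-sided permutation test, with p-values adjusted over the 12 pairs by the Benjamini-Hochberg method. This order makes every difference positive, so its sign carries no information, and the two-sided p does not depend on it. The 70 regroupings allow no p below 0.0286, which becomes 0.0429 after adjustment for the 8 pairs that reached it. The ratio of *WRKY22* over *WRKY29* (37.7% identity) was between 2.71 and 3.10 in DEX libraries and between 0.79 and 1.60 in mock libraries, a mean difference of 1.62. That of *WRKY18* over *WRKY60* (59.4% identity) was between 3.36 and 4.17 in DEX and between 2.53 and 2.83 in mock libraries, a difference of 1.09. That of *WRKY51* over *WRKY50* (36.6% identity) was between -0.33 and 0.34 in DEX and between -1.23 and -0.73 in mock libraries, a difference of 1.05. These ratios are not scaled for gene length, which cancels in the difference between groups.

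Smaller differences of the log2 ratio, also without overlap, were found for *WRKY26* over *WRKY25* (0.80), *WRKY12* over *WRKY13* (0.72), *WRKY4* over *WRKY3* (0.35) and *WRKY17* over *WRKY11* (0.21). *WRKY4* and *WRKY3* share 72.0% and *WRKY17* and *WRKY11* 75.4% of their residues. The ratio of *WRKY31* over *WRKY42* also differed, by 1.21, at raw counts between 16 and 66. The remaining 4 pairs overlapped between groups and did not pass. Their differences were 0.28 for *WRKY54* over *WRKY70* (exact permutation p = 0.0571, adjusted 0.0686), 0.27 for *WRKY39* over *WRKY74* (exact permutation p = 0.0571, adjusted 0.0686), 0.37 for *WRKY45* over *WRKY75* (exact permutation p = 0.257, adjusted 0.281) and 0.21 for *WRKY8* over *WRKY28* (exact permutation p = 0.457, adjusted 0.457).

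**Figure D5:**
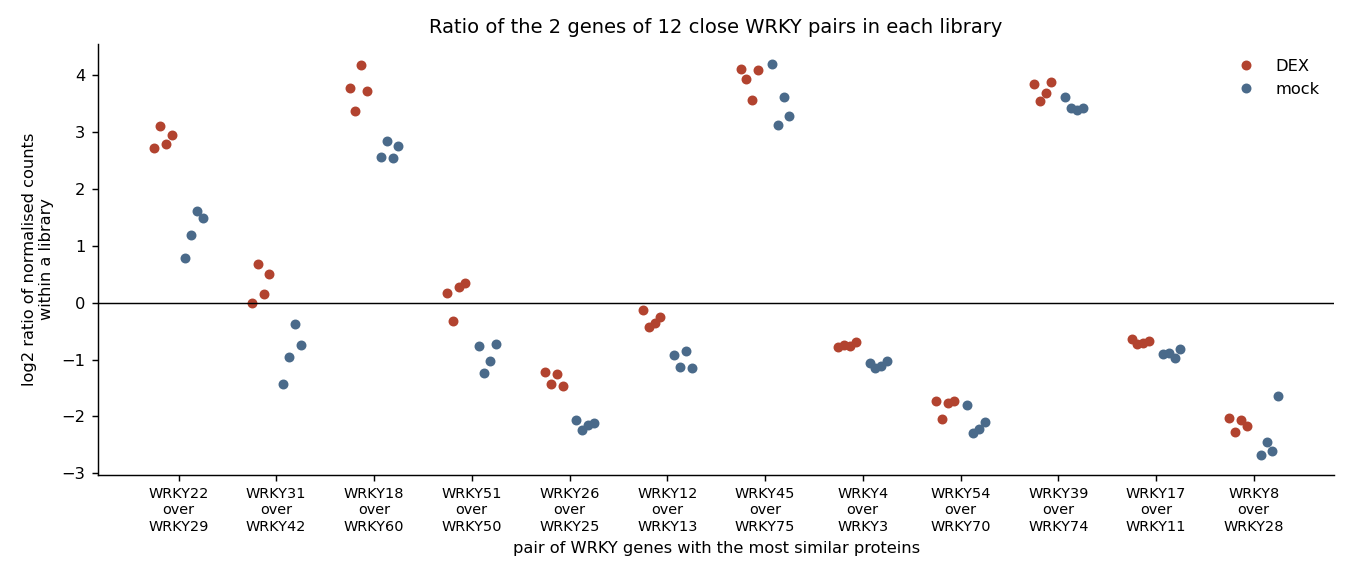
Log2 ratio of the normalised counts of the genes of 12 close WRKY pairs within each library (points; DEX left of mock for each pair), ordered by the mean difference DEX minus mock. The gene with the higher log2 fold change is on top of each ratio, which fixes the direction. DEX and mock libraries do not overlap for 8 pairs, with *WRKY22* over *WRKY29* at the left, and overlap for the other 4.

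Because WRKY proteins act through W-boxes and often on WRKY promoters, the motif was searched in the members' own promoters, on both strands. In the window of 250 bases before to 50 bases after the gene start, 17 of 43 members (39.5%) and 32.4% of 27443 protein-coding genes had a W-box, and 18.6% and 7.70% had at least 2. In 1000 bases before the start, 37 members (86.05%) and 67.3% of all protein-coding genes had a W-box, and 60.5% and 33.1% had at least 2. Of the 9 induced members 3 had a W-box in the short window and 9 in the long one, while 13 and 27 of the 33 other tested members did. The promoters of *WRKY33*, *WRKY30* and *WRKY40* are shown as those of induced members with and without a W-box in the short window. W-boxes are in capitals, and read TTGACC or TTGACT, or GGTCAA or AGTCAA where they lie on the other strand. The windows are chr2:16107985-16108284, plus strand (*WRKY33*), chr5:8154661-8154960, minus strand (*WRKY30*) and chr1:30383311-30383610, plus strand (*WRKY40*) in TAIR10.1, from the RefSeq genome.
WRKY33: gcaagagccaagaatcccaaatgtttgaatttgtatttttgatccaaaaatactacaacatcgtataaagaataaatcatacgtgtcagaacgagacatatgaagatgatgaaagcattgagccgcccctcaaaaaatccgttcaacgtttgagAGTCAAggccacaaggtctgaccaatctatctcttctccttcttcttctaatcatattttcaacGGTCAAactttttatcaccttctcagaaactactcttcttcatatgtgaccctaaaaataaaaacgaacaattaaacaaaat
WRKY30: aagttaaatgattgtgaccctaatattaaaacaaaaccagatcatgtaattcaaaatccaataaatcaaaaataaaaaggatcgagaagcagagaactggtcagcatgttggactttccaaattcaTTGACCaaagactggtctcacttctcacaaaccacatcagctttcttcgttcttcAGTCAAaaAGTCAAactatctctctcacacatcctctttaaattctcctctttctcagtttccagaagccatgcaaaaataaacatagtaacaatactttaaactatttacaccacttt
WRKY40: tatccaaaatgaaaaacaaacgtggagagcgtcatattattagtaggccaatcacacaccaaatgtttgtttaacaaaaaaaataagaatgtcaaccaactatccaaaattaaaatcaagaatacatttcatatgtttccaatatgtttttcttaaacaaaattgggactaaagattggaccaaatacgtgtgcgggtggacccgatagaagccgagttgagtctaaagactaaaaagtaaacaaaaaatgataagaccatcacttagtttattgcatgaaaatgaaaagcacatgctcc
The window of *WRKY33* holds 2 W-boxes and that of *WRKY30* holds 3. That of *WRKY40* holds 0, and 2 lie within its 1000 bases, so the member with the strongest change had none close to its start. These matches describe the letters of the windows and not binding.

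Of the 29 WRKY loci outside the 43, 23 were tested. Beside 4.64% of all tested genes, 1 of these 23 (4.35%) was induced. This was *WRKY38*, known with *WRKY62* as a repressor of basal defence. *WRKY38* had 806, 574, 765 and 784 normalised counts in DEX libraries, against 453, 263, 253 and 356 in mock libraries. Its groups did not overlap (log2 fold change 1.13, SE 0.20, adjusted p = 0.0028). *WRKY62* had a log2 fold change of 0.60 with an adjusted p of 0.045, and *WRKY69* was lower at an adjusted p under 0.01 with -0.38 (SE 0.07), under the threshold. The median log2 fold change of these 23 genes was 0.01.

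Upstream kinases and partners of WRKY proteins were followed by a list of 11 genes, of which 10 were tested. Of these 10, 3 (30%) were induced, beside 4.64% of all tested genes. Like the lists that follow, it was chosen with earlier results of these data known, which can raise its share. *MPK3* and *MKK4*, a kinase and its activator in the cascade that phosphorylates the WRKY33 protein, had log2 fold changes of 0.79 (SE 0.11, adjusted p = 0.0006) and 0.74 (SE 0.05, adjusted p = 1.9e-07). *MKS1*, whose VQ protein binds WRKY33 and WRKY25, rose by 1.01 (SE 0.07, adjusted p = 7.4e-07). *MPK6* and *MPK4* had values of 0.02 (SE 0.04) and 0.05 (SE 0.04), and *MKK5* was higher by 0.53 (SE 0.06), under the threshold. The median of the 10 genes was 0.30.

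Several WRKY proteins are known to act on the synthesis and perception of camalexin and salicylic acid. Of 16 genes of these pathways 4 (25%) were induced and 0 suppressed, beside 4.64% and 1.81% of all tested genes. The median log2 fold change of the 16 was 0.18. *PBS3* had 189, 116, 190.3 and 114 normalised counts in DEX libraries, against 31.4, 68.5, 24.6 and 55.4 in mock libraries. *PBS3* encodes an enzyme of salicylic acid synthesis (log2 fold change 1.84, SE 0.32, adjusted p = 0.0017). *SARD1* and *CBP60G*, regulators of that synthesis, rose by 1.35 (SE 0.14) and 0.92 (SE 0.09), and *NPR3*, a salicylic acid receptor, by 1.98 (SE 0.09). The synthesis gene *ICS1* itself was not called (0.18, SE 0.07, adjusted p = 0.069). *PAD3* had 333, 159.9, 120.5 and 171 normalised counts in DEX libraries, against 257, 289, 208 and 217 in mock libraries. For *PAD3*, which encodes the last enzyme of camalexin synthesis and is a direct target of WRKY33, the groups overlapped, at a log2 fold change of -0.32 with SE 0.29 and an adjusted p of 0.45. *CYP71A13*, another camalexin gene, averaged 22.1 ± 5.56 counts in DEX and 12.6 ± 2.10 in mock libraries (SD, n = 4 each), under the minimum of 50.

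Of 8 genes of pattern-triggered immunity 2 (25%) were induced, beside 4.64% of all tested genes. The median log2 fold change of the 8 was 0.19. *FRK1*, a marker of flagellin responses downstream of *WRKY22* and *WRKY29*, was higher by 0.74 (SE 0.13, adjusted p = 0.001). *RBOHD*, the oxidase of the defence-related oxidative burst, was higher by 1.002 (SE 0.10, adjusted p = 5e-05). The receptor genes *FLS2*, *EFR* and *CERK1* were not called, with values of -0.07 (SE 0.07), 0.20 (SE 0.06) and -0.02 (SE 0.04). Of 9 clock genes 0 were called, with *LUX* highest at 0.47 (SE 0.06, adjusted p = 6.6e-05). At an adjusted p under 0.01, 2 of the 9 (22.2%) were higher and 0 lower, beside 10.9% and 8.69% of all tested genes.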

How the data were processed

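Per the labels and the study's methods, polyA RNA of hypocotyls was sequenced in 8 libraries, and the authors mapped reads with STAR 2.7.8a to TAIR10 (submitters' processing notes). They kept uniquely mapped reads and counted them per gene with summarizeOverlaps in union mode, ignoring strand, so that reads on overlapping genes were left out and sense and antisense reads were not told apart. The deposited values used here are these raw counts, without normalisation. A deposited table of counts divided by DESeq2 1.34.0 size factors was not used. The annotation version is not given in the sources used here.

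All genes kept by filterByExpr were fitted with the quasi-likelihood test of edgeR 4.0.16 (R 4.3.3, limma 3.58.1) with TMM normalisation, robust dispersions and no replicate block, and p-values were adjusted over all 21289 genes tested. Standard errors (SE) were derived from the F statistic of each gene. Normalised counts are scaled to the mean effective library size. The thresholds are those of the study's methods. Replicates differed by more than sampling noise (chi-square per gene 6.25 to 25.2), so the number of libraries limits precision more than depth does, except at low counts. Alternatives were DESeq2 1.42.0, DESeq2 size factors, total counts only, no filter on low counts, a replicate block, other thresholds, and leaving out each library in turn. On counts simulated for DEX against mock, with 50 genes changed at each size among 21301 genes tested, edgeR recovered 49 at a log2 change of 0.8 and 50 each at 1, 2 and 3, with 2 false calls. The simulation gave every gene the same dispersion and left genes of low counts unchanged. It scored direction and adjusted p without the other thresholds. Recovery of genes that vary more between replicates, such as *WRKY53*, was therefore not measured.

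Positions, exon lengths, promoters and coding sequences came from RefSeq's TAIR10.1, to which all 43 loci were matched. The members and lists were chosen with earlier results of these data known. Every member could be named, with values in each library for called members and those set beside them, and other genes only from the fixed lists.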

Additional observations from a re-analysis of the deposited data

Results flagged for a closer look

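In each of the 86 sets of 4 libraries, 43 members in DEX and in mock, the library farthest from the others was compared with the range of its set. In 4 of the 86 sets 1 library stood apart. Chance gives about 1 in 20 sets, so this number is near that of chance. *WRKY53* had 926 normalised counts in DEX replicate 3, while the other DEX libraries had between 444 and 475. *WRKY41* had 13.5 in the same library and between 7.56 and 7.71 in the others. *WRKY4* had 1337 in mock replicate 2, below the 1461 to 1473 of the other mock libraries, and *WRKY20* had 3591 in mock replicate 3, above the 3123 to 3178 of the others.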

How the results depend on the processing

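The 10 called WRKY genes kept their direction and their call under DESeq2, DESeq2 size factors, total counts only, no filter on low counts, the replicate block, and without any 1 of the 8 libraries. Without 1 library at a time, the number of WRKY genes called induced was 9 to 10 and 1 was called suppressed each time, while all genes called induced numbered 901 to 994 and all genes called suppressed 327 to 426. The additional call was *WRKY12* without mock replicate 3 (log2 fold change 0.62). Without the fold change threshold, but with the minimum mean kept, 16 members were induced. Of all genes 2204 were then induced and 1766 suppressed, since small changes are counted. At an adjusted p under 0.05, 10 members were induced. Directions turned for 4 WRKY genes that were not called. With total counts only, which moved the median of all genes to -0.052, *WRKY6* had a log2 fold change of -0.029 and *WRKY20* of -0.033. Without 1 library at a time, *WRKY6* ranged from -0.073 (without DEX replicate 3) to 0.10, *WRKY8* from -0.19 to 0.20 (without mock replicate 4), *WRKY20* from -0.0054 (without mock replicate 1) to 0.063 and *WRKY45* from -0.20 to 0.066 (without mock replicate 1). The cause was not tested. Whether same-numbered libraries of the groups share more than a number is not given in the sources used here. Over tested genes with a mean count over 50 their deviations correlated at 0.02, 0.12, 0.11 and -0.04. Of the DEX libraries, only replicate 2 correlated best with the mock library of its own number. For many members, however, the replicate block lowered the SE. The SEs given above are from the fit without it. With the block the SE fell from 0.26 to 0.15 for *WRKY40*, from 0.18 to 0.09 for *WRKY33* and from 0.20 to 0.09 for *WRKY18*. It fell from 0.16 to 0.08 for *WRKY46* and from 0.11 to 0.05 for *WRKY48*, and rose from 0.19 to 0.20 for *WRKY75*. *WRKY54* had an SE of 0.08 with the block (adjusted p = 0.0011 from edgeR) and *WRKY70* of 0.05 (adjusted p = 0.0096), both under the fold change threshold. With the replicate block 983 genes were called induced and 387 suppressed, and 10 members were induced, *WRKY53* being added at a log2 fold change of 0.74 (adjusted p = 0.0069 from edgeR). Members with means under 50, *WRKY8*, *WRKY31*, *WRKY42* and *WRKY55*, and *WRKY41* are limited by their counts.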
